A study of Homo sapiens with 4 samples.

Results

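The genes described here are the POU2F class of transcription factors, POU2F1, POU2F2 and POU2F3, with the coactivators POU2AF1, C11orf53 and COLCA2 and the antisense neighbour COLCA1. They were chosen by name, and rows of the same symbol were to be summed. Of these 7 genes, 6 had exactly 1 row in each of the 4 tables, and the level of COLCA1 was not analysed here. Of the 35979 gene symbols in all, 14940 reached a mean normalized count of 20 over the libraries, and 5 of the 6 measured genes were among them. POU2F2 was below that minimum.

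Each library came from poly(A) RNA of NCI-H1048, an established line of human small cell lung cancer, whose cells had been given guide RNAs (gRNA) for genome editing. The COLCA2 gRNA group held 2 libraries, each from a different guide, and the labels give its genotype as COLCA2 knockout. The POU2F3 gRNA group, labelled POU2F3 knockout, and the non-targeting gRNA group, labelled wild type, held 1 library each, and the non-targeting library is called the control here. No further treatment is named. The labels do not say whether clones or mixed cells were taken, how long after editing RNA was collected, or where the guides cut, and transcript levels say nothing of how far a reading frame was broken. The genes were read from between 21587741 and 29632382 reads per library. Each ratio below is the log2 ratio of normalized counts with 1 added. Every ratio to the non-targeting library rests on that 1 library, so it has no replicate check, and the spread between the COLCA2 guides (SD, n = 2) is the only error within a group. The libraries came from cells given different guides, but nothing says whether the cultures were edited and grown independently.

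POU2F factors bind the octamer, a short AT-rich DNA element, through a bipartite POU domain. POU2F1 (OCT1) is made in most tissues, POU2F2 (OCT2) mainly in B lymphocytes and neurons, and POU2F3 (OCT11, Skn-1a) in tuft cells, which are chemosensory epithelial cells, and in suprabasal skin. POU2AF1 (OCA-B, OBF1) is the B cell coactivator that docks on octamer-bound POU2F1 or POU2F2. C11orf53, now named POU2AF2, and COLCA2, now named POU2AF3, are related small coactivators that dock on POU2F3. Tuft cell-like small cell lung cancers use POU2F3 as their lineage factor. The study asked what targeting COLCA2 or POU2F3 does to such cells.

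The genes lie in 4 places. POU2F1 (ENSG00000143190) is on the plus strand at chr1:167220829-167427345 and POU2F2 (ENSG00000028277) on the minus strand at chr19:42086110-42196585, both in GENCODE release 29 on GRCh38. C11orf53 (ENSG00000150750, plus, chr11:111245805-111286401), COLCA2 (ENSG00000214290, plus, chr11:111298555-111308735) and POU2AF1 (ENSG00000110777, minus, chr11:111352252-111455630) are neighbours. POU2F3 (ENSG00000137709, plus, chr11:120236640-120319944) starts 8.94 Mb further along the same chromosome. COLCA1 (ENSG00000196167, minus, chr11:111290787-111305045) overlaps COLCA2 by 6491 bp on the other strand. Whether counting used the strand is not given in the sources used here, so reads of COLCA1 cannot be told apart from those of COLCA2 in the COLCA2 values.

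Promoter windows of 300 bases, 250 before and 50 after an annotated start, were taken from RefSeq (GRCh38.p14) for 4 of the 7 genes. No window was matched for POU2F3, POU2AF1 or C11orf53. The octamer was searched as ATGCAAAT on both strands and also, with the fifth base free, as ATGCNAAT, which includes every ATGCAAAT. Over all 35116 windows, 1.77% held the first and 2.97% the second. Of the 12 windows of the 4 genes, 1 held a match, that of the downstream start of POU2F1. The 12 are not separate stretches, since the other windows of POU2F1 nearly coincide. Some windows of COLCA1 also overlap each other or a window of COLCA2. Neither motif was present in the 3 windows of COLCA2, the 5 of COLCA1 or the single one of POU2F2. The 250 bases before the first start of COLCA2, a targeted gene whose level was also lower with POU2F3 gRNA, and those before the downstream start of POU2F1 follow, both on the plus strand, with any octamer in capitals (here ATTTGCAT, the reverse complement of ATGCAAAT, starting 179 bases before the start). A match describes the letters only and is no evidence of binding.
COLCA2, chr11:111298296-111298545: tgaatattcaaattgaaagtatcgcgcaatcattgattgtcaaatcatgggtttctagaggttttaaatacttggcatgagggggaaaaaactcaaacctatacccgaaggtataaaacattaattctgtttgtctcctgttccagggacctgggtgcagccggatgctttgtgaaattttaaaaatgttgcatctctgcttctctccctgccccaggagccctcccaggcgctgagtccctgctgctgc
POU2F1, chr1:167328820-167329069: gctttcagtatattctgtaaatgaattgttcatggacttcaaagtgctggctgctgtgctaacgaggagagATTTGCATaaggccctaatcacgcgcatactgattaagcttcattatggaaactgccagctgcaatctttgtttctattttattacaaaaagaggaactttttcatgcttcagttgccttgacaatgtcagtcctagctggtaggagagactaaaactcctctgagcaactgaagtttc

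Among the factors, POU2F3 was far above its relatives in the control. POU2F3 had 14602 normalized counts in the control, 3677 and 2351 in the libraries of COLCA2 gRNA 1 and 2, and 1449 under POU2F3 gRNA. The control was the highest, both guides against COLCA2 lay between, and the library targeted at POU2F3 itself was the lowest. The residual level was 25.2% of the non-targeting value with COLCA2 gRNA 1, with a 95% exact interval of 24.3% to 26.1% from the read counts, and 16.1% (15.4% to 16.9%) with COLCA2 gRNA 2. It was 9.92% (9.43% to 10.4%) with POU2F3 gRNA. These intervals, and all others here, are of the Clopper-Pearson kind. They cover counting error alone and not differences between cultures. They may also be too narrow, because without molecular identifiers 2 reads may stem from 1 molecule. The guides differed from each other, gRNA 2 holding 63.9% (60.5% to 67.6%) of the gRNA 1 level. In bulk RNA, fewer cells that express a gene and less RNA per cell cannot be told apart, so a residual level may be a share of cells or a share of RNA.

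**Figure D1:**
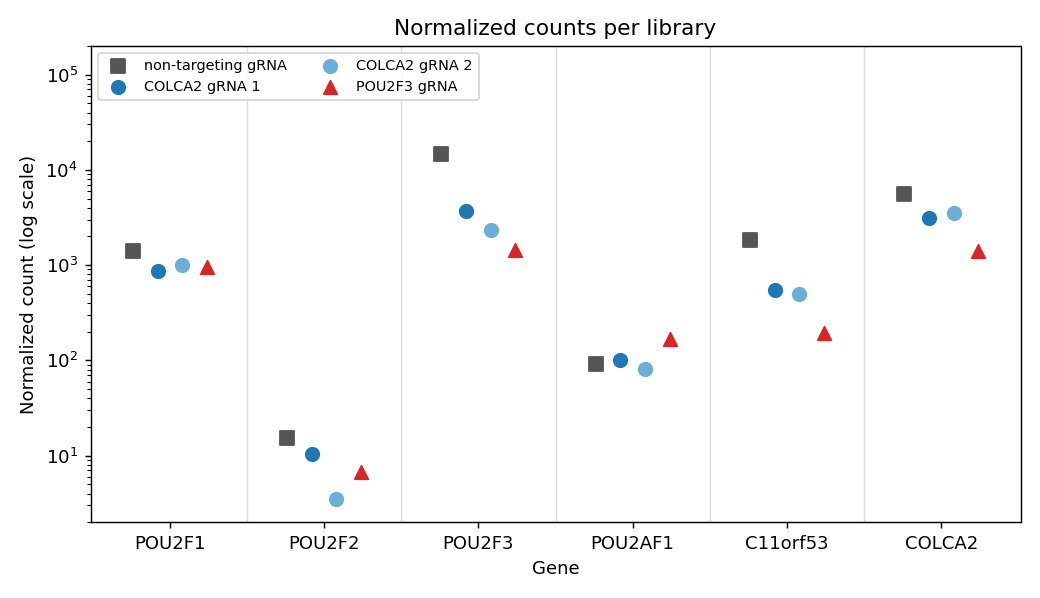
Normalized count (log axis) of the 6 measured genes in each of the 4 libraries, 1 point per library. POU2F3 ranged from 1449 to 14602 and COLCA2 from 1393 to 5585, both highest in the non-targeting library, whereas POU2AF1 was highest with POU2F3 gRNA at 166.

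POU2F1, the broadly expressed factor, differed far less between the libraries. POU2F1 had 1416 normalized counts in the control, 858 and 1014 in the libraries of COLCA2 gRNA 1 and 2, and 953 under POU2F3 gRNA. The control was again the highest, and the POU2F3 gRNA library lay between the COLCA2 guides. The log2 ratio was -0.60 ± 0.17 (SD, n = 2) with the COLCA2 guides and -0.57 with POU2F3 gRNA, so the residual levels were 60.6%, 71.6% and 67.3% with COLCA2 gRNA 1, COLCA2 gRNA 2 and POU2F3 gRNA. Against the mean of the COLCA2 guides, the POU2F3 gRNA library differed by 0.030 on the log2 scale, less than the spread between the guides.

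POU2F2 was near the limit of detection throughout. Its reads numbered 16 in the control, 10 and 3 under COLCA2 gRNA 1 and 2, and 8 under POU2F3 gRNA, or 15.3, 10.4, 3.53 and 6.71 normalized counts. With POU2F3 gRNA the level was 43.9% of the non-targeting one, with an interval of 16.3% to 109% that includes no difference. The interval with COLCA2 gRNA 1, 27.5% to 159%, also includes it, whereas that with COLCA2 gRNA 2, 4.31% to 80.7%, does not. POU2F2 was thus lower beyond counting error with 1 guide only, on 3 reads, and whether it differed was not settled at this depth.

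Levels of different genes were compared per kilobase (kb) of transcript, using the longest annotated transcript of each gene or, as an alternative, the union of its exons. In the non-targeting library POU2F3 stood at 4260 normalized counts per kb by the longest transcript, POU2F1 at 98.8 and POU2F2 at 2.21. POU2F3 thus made up 97.7% of the per-kb total of the 3 factors there, 94.6% and 90.6% under COLCA2 gRNA 1 and 2, and 86.2% under POU2F3 gRNA. By the union of exons the shares were 96.1%, 91.0%, 84.8% and 78.4%. POU2F3 remained the most abundant of the 3 factors in every library by both lengths, although the per-kb total of the 3 was 4361 in the non-targeting library and 490.1 with POU2F3 gRNA. The share of POU2F1 was 2.27% in the non-targeting library and 13.6% with POU2F3 gRNA by the longest transcript, while its own level was lower in the latter.

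Of the coactivators, COLCA2 was the targeted one. COLCA2 had 5585 normalized counts in the control, 3119 and 3541 in the libraries of COLCA2 gRNA 1 and 2, and 1393 under POU2F3 gRNA. The lowest COLCA2 level was therefore found in the library that received the POU2F3 guide and not in those that received guides against COLCA2. The residual level was 55.8% (53.4% to 58.4%) and 63.4% (60.7% to 66.3%) with the COLCA2 guides and 24.9% (23.6% to 26.3%) with POU2F3 gRNA. The mean log2 ratio with the COLCA2 guides was -0.75 ± 0.13 (SD, n = 2), short of 2-fold. With POU2F3 gRNA it was -2.00.

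C11orf53, which neighbours COLCA2, was not targeted in any library. C11orf53 had 1853 normalized counts in the control, 554 and 499 in the libraries of COLCA2 gRNA 1 and 2, and 195 under POU2F3 gRNA. The order of the libraries was that of POU2F3, and the guides against COLCA2 lay close together, gRNA 2 at 90.1% of gRNA 1 with an interval of 79.1% to 103%. The residual level was 29.9% (27.1% to 32.9%) and 26.9% (24.2% to 29.9%) with the COLCA2 guides, and 10.5% (9.13% to 12.1%) with POU2F3 gRNA. With guides against COLCA2, the C11orf53 transcript was thus further below its non-targeting level than the COLCA2 transcript was, by mean log2 ratios of -1.82 ± 0.11 and -0.75 ± 0.13 (SD, n = 2).

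POU2AF1, the B cell coactivator, was low and did not follow the other coactivators. POU2AF1 had 90.7 normalized counts in the control, 102 and 81.1 in the libraries of COLCA2 gRNA 1 and 2, and 166 under POU2F3 gRNA, from 69 to 198 reads. The control lay between the COLCA2 guides, and the POU2F3 gRNA library was the highest. That library held 183% of the non-targeting level (143% to 237%), 164% (128% to 211%) of COLCA2 gRNA 1 and 205% (155% to 273%) of COLCA2 gRNA 2. The log2 ratio of 0.87 with POU2F3 gRNA was below 2-fold, and no replicate exists for it. B cell markers were scarce: of 10 markers, 8 were below the expression minimum, their summed normalized count lay between 87.0 and 125 in all libraries, and MS4A1 (CD20) had no reads in the non-targeting and POU2F3 gRNA libraries. PAX5, a B cell lineage factor, had 36 reads in the control and 2, 3 and 4 under COLCA2 gRNA 1, COLCA2 gRNA 2 and POU2F3 gRNA, while CD74, an antigen presentation chaperone, had 41, 60, 35 and 66 in the same order.

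**Figure D2:**
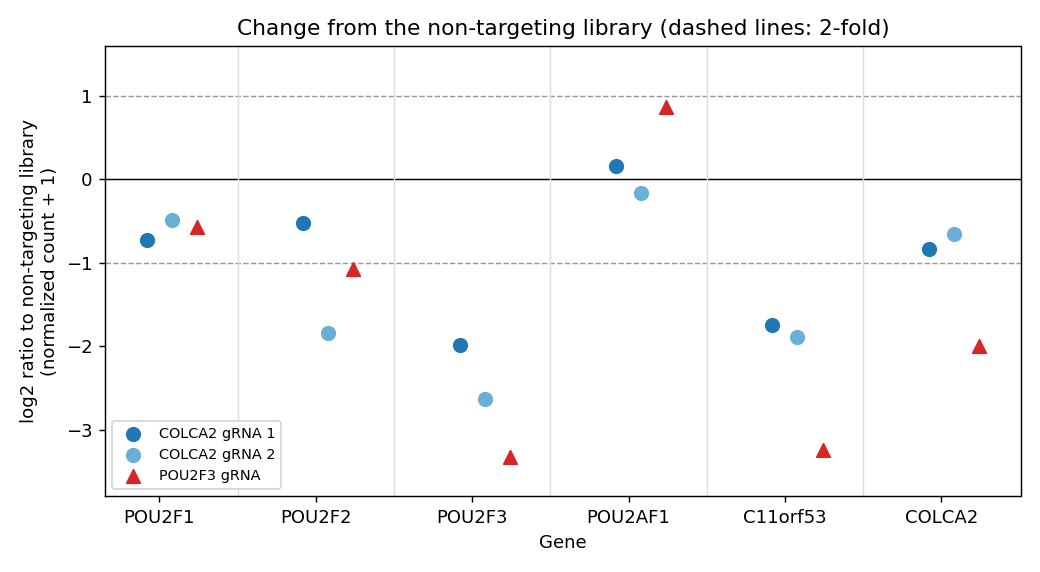
Log2 ratio of each gene to the non-targeting library (normalized count plus 1), 1 point per edited library, with dashed lines at 2-fold. POU2F3 and C11orf53 passed the lower line in all 3 edited libraries, COLCA2 passed it only with POU2F3 gRNA at -2.00, and POU2AF1 reached 0.87 with POU2F3 gRNA. POU2F2 rests on 16 reads or fewer.

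Read against all genes, the ratios of POU2F3, C11orf53 and COLCA2 lay low in the order. With both COLCA2 guides, 2 of the 5 genes past the minimum, POU2F3 and C11orf53, were at least 2-fold lower, as were 2.02% of all genes tested. With POU2F3 gRNA, 3 of the 5 were (POU2F3, C11orf53 and COLCA2), against 3.05% of all genes. Counted from the lowest log2 ratio among 14940 genes, POU2F3 ranked 35, C11orf53 39 and COLCA2 112 with POU2F3 gRNA. By the mean of the COLCA2 guides they ranked 51, 112 and 846. The median log2 ratio of the 5 genes was -2.00 under POU2F3 gRNA and -0.75 for the COLCA2 guides, while that of all genes tested was -0.0037 and -0.0086. Each median of the 5 was the value of COLCA2 itself, the gene that the COLCA2 guides targeted. The 5 hold the targeted gene of every comparison and were chosen with earlier results of these data known. Counts among them are therefore no independent support. The quasi-likelihood test of edgeR was run on the recovered reads as an alternative. Its only spread is that between the COLCA2 guides, which may mix guide and technical differences, so it compares these libraries rather than the conditions. With COLCA2 gRNA it called 4 of the 5 genes lower, all but POU2AF1, beside 7.51% of all genes. With POU2F3 gRNA it called POU2F3, C11orf53 and COLCA2 lower, beside 3.98% of all genes.

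The POU2F3 gRNA library was set directly against the COLCA2 libraries, a comparison that leaves the non-targeting library out. C11orf53 and COLCA2 were at least 2-fold lower than with either guide, 2 of 5 genes against 0.924% of all genes tested. C11orf53 stood at 35.2% (30.0% to 41.1%) of COLCA2 gRNA 1 and 39.1% (33.1% to 45.9%) of COLCA2 gRNA 2, and COLCA2 at 44.7% (42.1% to 47.5%) and 39.3% (37.0% to 41.8%). POU2F3 stood at 39.4% (37.2% to 41.7%) of gRNA 1 but 61.6% (57.7% to 65.8%) of gRNA 2, so whether it was 2-fold lower depended on the guide. The log2 differences from the mean of the guides were -1.43 for C11orf53, -1.25 for COLCA2 and -1.02 for POU2F3, beside SDs between the guides of 0.11, 0.13 and 0.46. The edgeR test called C11orf53 (adjusted p = 0.0254) and COLCA2 (adjusted p = 0.0149) and not POU2F3 (adjusted p = 0.170), with 0.234% of all genes called lower.

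Ratios between genes of the same library do not depend on how the libraries were scaled to each other. By the longest transcript, COLCA2 per kb was 0.927 times POU2F3 in the control, 2.06 and 3.65 times under COLCA2 gRNA 1 and 2, and 2.33 times under POU2F3 gRNA. The pair was near-equal in the control, and COLCA2 exceeded POU2F3 in every edited library, those targeted at COLCA2 included. The log2 ratio was higher than in the control by 1.56 ± 0.59 (SD, n = 2) with the COLCA2 guides and by 1.33 with POU2F3 gRNA. By the union of exons the control ratio was 1.23, so which of the pair was more abundant there depends on the length used, while the changes are the same by construction.

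C11orf53 lay closer to a fixed ratio with POU2F3. By the longest transcript its ratio to POU2F3 per kb was 0.360 in the control, 0.427 and 0.602 under COLCA2 gRNA 1 and 2, and 0.381 under POU2F3 gRNA. On the log2 scale this was 0.083 above the control under POU2F3 gRNA, and under the COLCA2 guides 0.49 ± 0.35 (SD, n = 2). The ratio of C11orf53 to COLCA2 was 0.388 in the control and lower in the edited libraries, at 0.208, 0.165 and 0.164 with COLCA2 gRNA 1, COLCA2 gRNA 2 and POU2F3 gRNA. COLCA2 made up 71.7% of the per-kb total of the 3 coactivators in the control by the same length and 81.8%, 85.1% and 82.3% in those libraries, and POU2AF1 at most 4.21%, its value with POU2F3 gRNA.

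**Figure D3:**
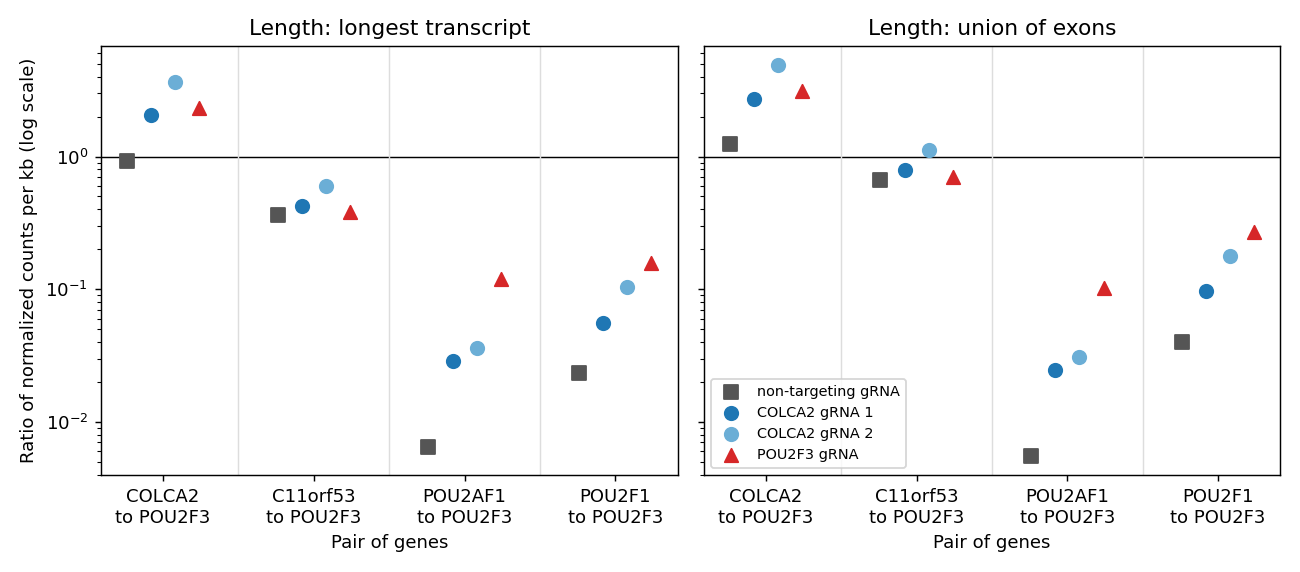
Ratio of normalized counts per kb (log axis) of each of 4 genes to POU2F3 in the same library, by the longest transcript (left) and the union of exons (right), 1 point per library. The ratio of COLCA2 to POU2F3 was 0.927 in the non-targeting library and between 2.06 and 3.65 in the edited ones on the left, and that of POU2AF1 was highest with POU2F3 gRNA at 0.119.

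The order of levels per kb was POU2F3, COLCA2, C11orf53, POU2F1, POU2AF1, POU2F2 in the control by the longest transcript. In the edited libraries COLCA2 came first by both lengths. POU2F3 came second by the longest transcript, but with COLCA2 gRNA 2 the union of exons gave 354 for POU2F3 and 394 for C11orf53, so their order there is not settled. In the control and by the longest transcript, POU2F3 lay at the percentile 98.1 per kb of the tested genes with a known length. COLCA2 lay at 98.0 and C11orf53 at 93.5. With POU2F3 gRNA these were 73.3, 89.3 and 47.5, so POU2F3 and COLCA2 still lay above most genes and C11orf53 near the middle.

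Genes around both loci were examined next. Of the genes past the minimum whose start lies within 500 kb of that of COLCA2, C11orf53 and POU2AF1 are described above, and the others were SIK2, a kinase, and PPP2R1B, a scaffold subunit of protein phosphatase. Their log2 ratios were 0.025 ± 0.049 and -0.34 ± 0.078 (SD, n = 2) with the COLCA2 guides and 0.24 and -0.23 with POU2F3 gRNA, all below 2-fold. CRYAB, a small heat shock protein gene further from COLCA2, was at least 2-fold higher with both targets, with 21.0 in the control, 99.5 and 112 under the COLCA2 guides and 139 under POU2F3 gRNA. ARHGAP20, also on the list of neighbours, had 37.2 in the control but 14.5 and 81.1 under COLCA2 gRNA 1 and 2, beyond 2-fold in opposite directions, and 72.2 under POU2F3 gRNA. Around POU2F3 the nearest genes differed among themselves. OAF, whose end lies 6.31 kb before POU2F3, had log2 ratios of -0.12 ± 0.12 (SD, n = 2) with the COLCA2 guides and -0.18 with POU2F3 gRNA, and ARHGEF12, a guanine nucleotide exchange factor, had -0.059 ± 0.18 and 0.11.

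TLCD5, which starts 5.19 kb after the end of POU2F3 on the same strand, was at least 2-fold lower in every edited library. It had 587 normalized counts in the control, 233 and 256 under COLCA2 gRNA 1 and 2, and 212 under POU2F3 gRNA. TRIM29, on the other side, was higher, at 18.1 in the control, 376 and 421 with the COLCA2 guides and 133 with POU2F3 gRNA. GRIK4, a glutamate receptor subunit, had 2 reads in the control and normalized counts of 17.6, 47.0 and 14.3 in the edited libraries. The neighbours of POU2F3 thus held genes below, near and above their control level. TRIM29 and GRIK4, the genes above it, lay under 20 in the control and passed the minimum only through the edited libraries. The minimum therefore favoured their being higher, and GRIK4, with 2 reads in the control, could hardly have been lower.

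**Figure D4:**
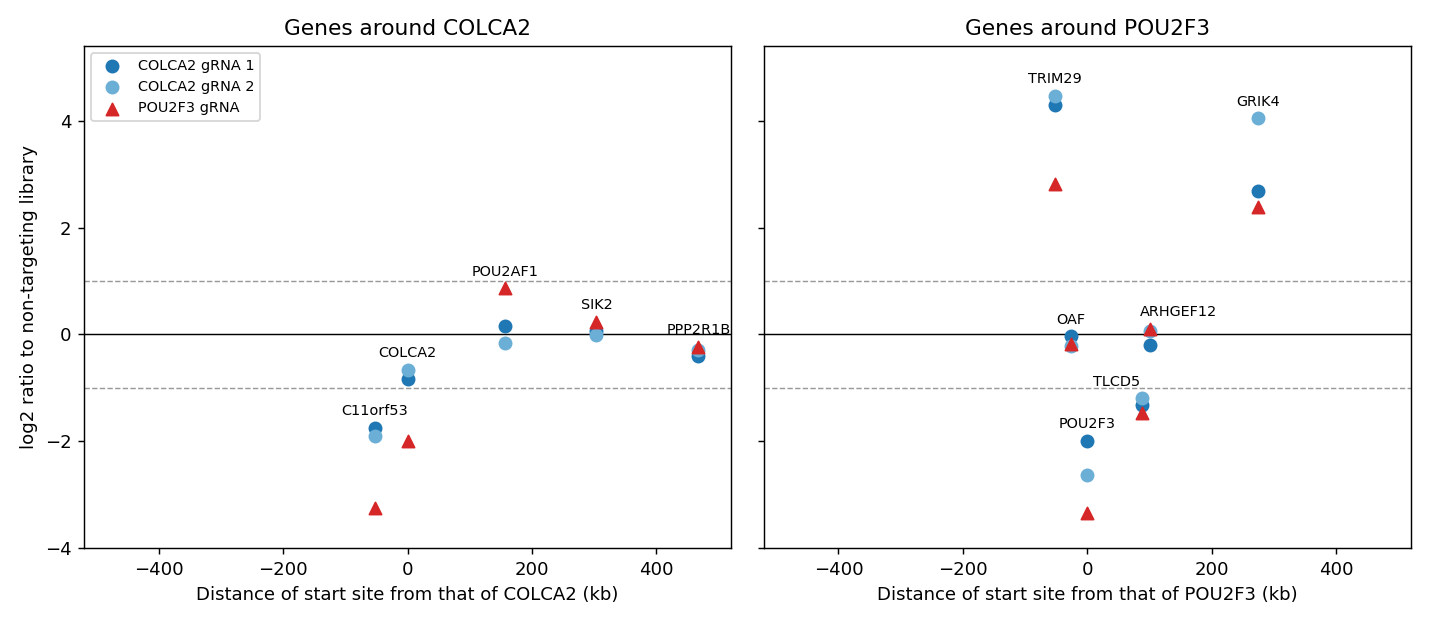
Log2 ratio to the non-targeting library of every gene past the expression minimum within 500 kb of the start of COLCA2 (left) or POU2F3 (right), against the distance between start sites in kb, with dashed lines at 2-fold. C11orf53 and COLCA2 lay below 0 in all 3 edited libraries. PPP2R1B lay between -0.40 and -0.23, SIK2 between -0.010 and 0.24, and POU2AF1 between -0.16 and 0.87. Around POU2F3, TLCD5 was also at least 2-fold lower in all 3 libraries while TRIM29 and GRIK4 were higher. TRIM29 and GRIK4 passed the minimum only through the edited libraries.

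Other POU genes stood far below POU2F3. Of 12 further POU genes, 7 passed the minimum, none was 2-fold apart with both COLCA2 guides, and 2 were 2-fold lower with POU2F3 gRNA, beside 3.05% of all genes. These were POU6F1, with 602 in the control, 370 and 208 under COLCA2 gRNA 1 and 2 and 249 under POU2F3 gRNA, and POU3F1, with 39.2, 18.7, 25.9 and 18.5. POU3F2, a neural factor also made in some lung cancers, had 245, 135, 102 and 222. Of 17 general partners of octamer factors, which include the SNAPC subunits of the small nuclear RNA gene activator, 1 passed 2-fold. That was NR3C1, the glucocorticoid receptor, with 47.7 in the control, 357 and 528 under the COLCA2 guides and 413 under POU2F3 gRNA. The higher side of the background was 5.79% of all genes for COLCA2 gRNA and 6.73% for POU2F3 gRNA. HMGB1, the most abundant of the 17, stood at 31748 in the control, 24978 and 23199 under the COLCA2 guides and 24322 under POU2F3 gRNA. It was thus lower in every edited library but short of 2-fold, its log2 ratios lying between -0.45 and -0.35. NONO, an RNA-binding protein that was also abundant, differed less, at 18510, 17267, 16429 and 17238 in the same order.

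The tuft cell label was checked against its markers. In the control AVIL, an actin-bundling protein of tuft cells, had a normalized count of 5093, GFI1B, a zinc-finger repressor, 1899, BMX, a kinase, 771 and ASCL2, a lineage factor, 458, whereas TRPM5, the tuft cell taste channel, had 2 reads. SH2D6 and SH2D7, also tuft markers, had 172 and 55.4 in the control. NEUROD1, a factor of a neuroendocrine subtype, stood at 2.86. The list of 30 tuft genes came from general knowledge but was drawn up with earlier results of these data known. Counts on it are therefore no independent support. The 8 genes below the minimum were TRPM5, ALOX5AP, PTGS1, HPGDS, CHAT, IL25, GNG13 and TAS1R3. Of the 30 genes, 22 passed the minimum. With POU2F3 gRNA 16 of them were at least 2-fold lower and with both COLCA2 guides 13, with median log2 ratios over the 22 of -1.25 and -1.17, beside the shares of all genes given above. Among the 16 were AVIL, BMX, ALOX5, LRMP, SH2D6, GFI1B, ASCL2, HMX2, HMX3, SOX9, GNAT3, PLCG2, KIT, RGS13 and ANXA4. The 13 lacked ASCL2, HMX3, PLCG2 and ANXA4 and included DCLK1. In the direct comparison 7 were 2-fold lower with POU2F3 gRNA than with either COLCA2 guide. They included AVIL, BMX, ALOX5, LRMP, SH2D6 and RGS13. RGS13, a regulator of G protein signalling, had 2518 in the control, 879 and 720 under the COLCA2 guides and 128 under POU2F3 gRNA, whereas KIT, a receptor kinase, had 3084, 1527, 1505 and 1515.

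Other markers moved in the same libraries. Among lung cancer lineage regulators, YAP1, a Hippo pathway coactivator, had 776 in the control, 2795 and 3475 under the COLCA2 guides and 3612 under POU2F3 gRNA, and INSM1, a neuroendocrine factor, 118, 23.8, 24.7 and 35.3. Of 5 epithelial markers, 4 were at least 2-fold higher with both targets, beside 5.79% of all genes for COLCA2 gRNA and 6.73% for POU2F3 gRNA. The fifth, EPCAM, an epithelial adhesion molecule, had 3986 in the control and less in each edited library, at 2945, 3408 and 2463 for COLCA2 gRNA 1, COLCA2 gRNA 2 and POU2F3 gRNA. KRT8 and KRT18 held most of the sum in every library, and the summed normalized count of the 5 was 12971 in the control and between 28209 and 39450 in the edited libraries. KRT8, a simple epithelial keratin, was 2530 in the control and 10023 with POU2F3 gRNA. Of 5 fibroblast markers, LUM and PDGFRB were at least 2-fold higher with both targets, beside the same shares of all genes, while the sum of the 5 ranged only from 1219 to 1664 and COL1A1 from 1002 to 1186. Of 5 neuroendocrine markers, NCAM1, an adhesion molecule, was 2-fold lower with both COLCA2 guides, beside 2.02% of all genes. Nearly all of the summed count of the 5 was NCAM1, with 4129 of 4239 in the control, while CHGB, a granule protein, had 22.9 there and 17.6, 27.0 and 22.7 in the edited libraries. The part of these shifts in the values of the POU2F genes was not tested.

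The genes whose 3 log2 ratios lay nearest those of each gene were then listed by Euclidean distance, among genes with a mean of at least 100. Nearest to POU2F3 was GFI1B, at a distance of 0.14, with normalized counts of 1899, 520, 315 and 181 in the control, COLCA2 gRNA 1, COLCA2 gRNA 2 and POU2F3 gRNA libraries. ALOX5, the enzyme that starts leukotriene synthesis and whose count is the sum of 2 annotated copies, followed at 0.45, then LCP2, an adaptor of immune receptors, at 0.62, PLPPR4 at 0.69 and GRASP at 0.69. C11orf53 itself lay at 0.79 from POU2F3 and COLCA2 at 2.65. COLCA2 was the targeted gene in the COLCA2 gRNA libraries, and C11orf53 in none, so the distances do not compare the coactivators on equal terms.

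Nearest to C11orf53 was FAM20A, a secreted pseudokinase, at 0.25, followed by PLA2G4A, a phospholipase that releases arachidonic acid, at 0.39, CCM2L at 0.43, PIK3CG, a catalytic subunit of phosphoinositide kinase, at 0.44 and C5orf58 at 0.45. PLA2G4A had 3497, 1189, 880 and 462 in the same order of libraries. Nearest to COLCA2 were TBC1D3D at 0.30, whose near-identical copies make its count uncertain, FGF7, a growth factor, at 0.36, CLIC5 at 0.36, VCAM1, an adhesion molecule, at 0.44 and FLRT2 at 0.45. VCAM1 had 2564, 1265, 1323 and 532, with the lowest level in the POU2F3 gRNA library and both COLCA2 guides between. That order follows from its being picked for nearness to COLCA2. All 3 ratios share the non-targeting library, so a small distance describes these 4 libraries only.

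**Figure D5:**
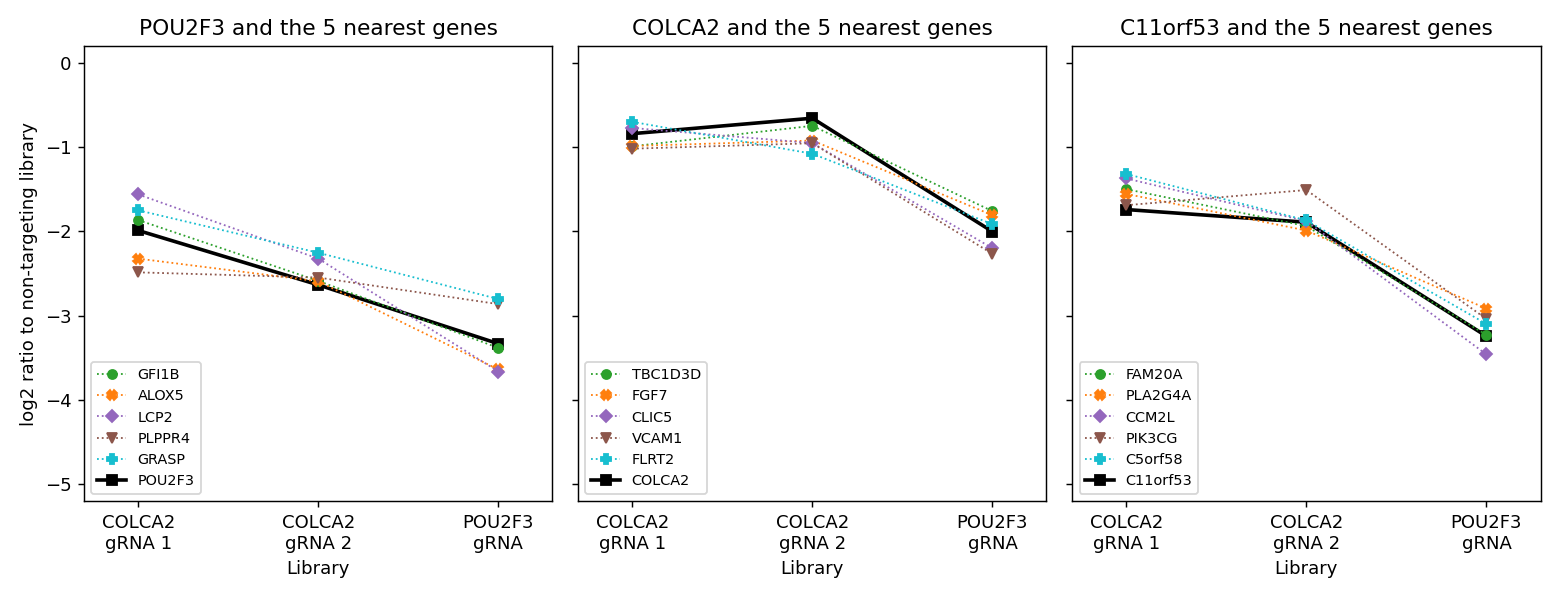
Log2 ratio to the non-targeting library in the 3 edited libraries for POU2F3, COLCA2 and C11orf53 (black) and for the 5 genes at the smallest Euclidean distance from each (dotted). GFI1B ran within 0.14 of POU2F3. The lines of COLCA2 and its nearest genes were all lowest with POU2F3 gRNA, an order set by the choice of genes near COLCA2.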

How the data were processed

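Poly(A) RNA of 4 NCI-H1048 libraries was sequenced. Per the file headers, the deposited signal is a normalized count for each gene. Salmon, DESeq2 and hg38 are named without roles in the submitters' processing notes, and the annotation and use of the strand are not given in the sources used here. All values (100%, within 0.01 of a read) were whole multiples of 1 step per library, so the deposited signal was divided by that step to recover reads, which totalled 24668649 and 21587741 for COLCA2 gRNA 1 and 2, 29632382 for POU2F3 gRNA and 25435970 in the control. Whole values may be estimated counts that were rounded.

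Rows of 1 symbol were summed. Genes with a mean of at least 20 were tested, a pseudocount of 1 was used, and at least 2-fold was called, for COLCA2 gRNA with both guides. Groups of 1 library allow no test within a group, so edgeR 4.0.16 (quasi-likelihood, TMM) and DESeq2 1.42.0, with 3 groups, 1 residual degree of freedom and Benjamini-Hochberg adjustment at 0.05, were alternatives. Gene lengths and positions are from GENCODE release 29, which held 96.2% of the tested genes. The scripts were tested on simulated data.

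The named genes are the 6 measured members, the genes of each list at least 2-fold apart or highest, and the 5 genes nearest in pattern to POU2F3, COLCA2 and C11orf53, without symbols that only name a clone. Members and lists were chosen with earlier results of these data known. Some listed genes are not reported here.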

Additional observations from a re-analysis of the deposited data

How the results depend on the processing

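No paired analysis was possible because no replicate number but 1 is common to 2 groups. The ratios of POU2F3, COLCA2 and C11orf53 moved by less than the spread between the guides (for POU2F3 gRNA against non-targeting, the counting interval) and changed no sign under the other pseudocounts, scalings, row choice, edgeR and DESeq2 fits, and the changes of their ratios within a library are fixed under another length. Leaving out 1 of 2 guides always moves a mean by less than their SD, so it is no check on that measure. No ratio of the 3 genes changed sign with either guide left out. For POU2F3, the direct difference was -1.34 from gRNA 1 and -0.70 from gRNA 2, on either side of 2-fold. Of the scalings, equal totals shifted the median over all genes most, by -0.069 with COLCA2 gRNA. With 1 guide left out, POU2F2 against non-targeting moved from -1.18 to -1.85 or -0.52, over 1.5 times. Counts over all genes also changed by over 1.5 times under the settings that follow. Given as lower and higher, and main values first, the counts were 302 and 865 with COLCA2 gRNA, 455 and 1005 with POU2F3 gRNA, and 138 and 66 for POU2F3 gRNA against COLCA2 gRNA. Without a minimum they were 1028 and 1857, 1639 and 2551, and 791 and 812, since genes of few reads were then counted. A minimum of 100 left 177 lower with COLCA2 gRNA, 233 and 631 for POU2F3 gRNA, and 62 and 11 in the direct comparison. At 4-fold they were 44 and 346, 113 and 365, and 27 and 12. With 1 guide left out, the count lower with COLCA2 gRNA ranged from 477 to 544, and the direct counts from 231 to 268 lower and from 205 to 229 higher, since 1 guide then had to pass. The edgeR test called 1122 lower and 1709 higher with COLCA2 gRNA, and 35 lower and 16 higher directly, and DESeq2 called 630 lower with COLCA2 gRNA. A pseudocount of 10 left 37 higher directly. The causes were not tested except where stated. Depth limits POU2F2, at 3 to 16 reads.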
